A study of Homo sapiens with 4 samples.

Results

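AP-1 and immediate early genes are the 33 genes on a list set from textbook knowledge: the AP-1 and small MAF subunits FOS, FOSB, FOSL1, FOSL2, JUN, JUNB, JUND, ATF3, BATF, BATF3, MAFF, MAFG and MAFK, the immediate early transcription factors EGR1 to EGR3, KLF2, KLF4, KLF6, KLF10, NR4A1 to NR4A3, MYC and SRF, the IER genes IER2, IER3 and IER5, and the phosphatases DUSP1, DUSP2, DUSP4, DUSP5 and DUSP6. Their peaks were all those whose nearest gene, as the authors named it, was on the list. Of the 33 genes, 31 were named for at least 1 peak. They held 76 of the 52192 peaks of control cells in DMSO, 81 of 49783 of control cells in rapamycin, 75 of 45700 of ARID1A hairpin cells in DMSO and 73 of 44760 of these cells in rapamycin. Merging overlapping peaks of the 4 lists gave 94 regions at these genes, of 69838 in all.

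The open chromatin of Huh7 cells, a human liver cancer line, was profiled by ATAC-seq, a method whose transposase inserts adapters into accessible DNA. All 4 groups were Huh7 cells grown in DMEM with 10% fetal bovine serum, with a control hairpin (shControl) or a hairpin that targets ARID1A (shARID1A), a DNA-binding subunit of the SWI/SNF chromatin remodelling complex. Each was treated with DMSO or with 100 nM rapamycin, an inhibitor of the mTORC1 kinase complex, for 6 h, and 50000 cells were taken for each reaction. Each group had 1 library, so no difference below has a replicate check and no test was made. The hairpin sequences, the number of clones and the remaining ARID1A level are not stated in the labels, and a peak list does not measure a knockdown that acts on RNA.

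AP-1 is a family of dimers of basic leucine zipper proteins, built from a FOS and a JUN protein or from JUN with an ATF or BATF protein, that bind short palindromic sites at enhancers and promoters. Immediate early genes such as FOS, JUN, EGR1 and IER2 are transcribed within minutes of a growth factor or stress signal without new protein synthesis. Many carry promoters bound by SRF at CArG boxes and by CREB or ATF proteins at cyclic AMP response elements (CRE), and their promoters are typically open before the signal arrives. In hepatocytes this programme is known for its early rise after partial hepatectomy.

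The promoters of 6 genes on which the results turn are shown first. Each is the RefSeq window (GRCh38.p14) from 250 bases before to 50 after an annotated start site, 5′ to 3′ on the gene's strand, with matches to the AP-1 site TGANTCA, the CRE TGACGTCA or the CArG box in capitals. SRF and EGR1 had promoter peaks among the strongest of the list, and EGR2 and DUSP1 had promoter ranks that differed widely between libraries. The promoter label of MAFF switched between lists, and IER5 is near the strongest distal peak found in some lists only.
SRF, chr6:43171019-43171318, plus strand: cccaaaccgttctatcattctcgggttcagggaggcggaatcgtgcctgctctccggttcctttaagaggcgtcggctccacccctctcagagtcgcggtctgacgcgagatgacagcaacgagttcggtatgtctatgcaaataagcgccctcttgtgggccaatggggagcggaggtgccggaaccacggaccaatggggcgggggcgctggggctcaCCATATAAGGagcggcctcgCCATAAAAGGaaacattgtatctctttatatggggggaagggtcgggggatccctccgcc
EGR1, chr5:138465229-138465528, plus strand: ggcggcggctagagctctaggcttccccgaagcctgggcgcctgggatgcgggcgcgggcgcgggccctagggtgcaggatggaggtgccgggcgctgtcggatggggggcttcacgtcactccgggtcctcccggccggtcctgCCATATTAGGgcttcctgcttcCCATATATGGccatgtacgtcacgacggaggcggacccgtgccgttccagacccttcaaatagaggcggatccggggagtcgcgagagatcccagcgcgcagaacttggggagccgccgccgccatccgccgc
EGR2, chr10:62816317-62816616, minus strand: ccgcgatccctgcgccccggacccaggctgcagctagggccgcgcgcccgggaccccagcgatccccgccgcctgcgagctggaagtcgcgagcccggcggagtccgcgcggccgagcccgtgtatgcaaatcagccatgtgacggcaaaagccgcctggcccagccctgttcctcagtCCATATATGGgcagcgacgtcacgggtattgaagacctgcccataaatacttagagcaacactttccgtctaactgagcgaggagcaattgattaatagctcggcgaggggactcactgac
DUSP1, chr5:172771146-172771445, minus strand: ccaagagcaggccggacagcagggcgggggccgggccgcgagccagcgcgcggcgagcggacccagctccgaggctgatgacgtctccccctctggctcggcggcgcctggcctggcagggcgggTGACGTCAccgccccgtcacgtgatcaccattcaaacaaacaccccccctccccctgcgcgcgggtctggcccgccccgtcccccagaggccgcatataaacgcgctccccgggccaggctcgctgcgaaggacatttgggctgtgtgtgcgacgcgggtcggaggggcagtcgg
MAFF, chr22:38201744-38202043, plus strand: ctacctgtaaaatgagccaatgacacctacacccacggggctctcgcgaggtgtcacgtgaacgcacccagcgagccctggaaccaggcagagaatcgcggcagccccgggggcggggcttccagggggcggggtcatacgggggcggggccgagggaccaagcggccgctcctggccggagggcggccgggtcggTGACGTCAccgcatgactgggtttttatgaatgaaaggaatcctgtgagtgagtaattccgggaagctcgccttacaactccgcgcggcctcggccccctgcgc
IER5, chr1:181088450-181088749, plus strand: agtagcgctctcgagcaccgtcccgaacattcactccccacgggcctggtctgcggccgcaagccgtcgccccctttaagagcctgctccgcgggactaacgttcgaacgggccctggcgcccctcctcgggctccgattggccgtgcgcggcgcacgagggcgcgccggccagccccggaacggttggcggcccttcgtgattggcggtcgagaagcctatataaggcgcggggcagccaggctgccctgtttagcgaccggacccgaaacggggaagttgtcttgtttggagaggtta

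The capitals mark 2 CArG boxes in SRF, beginning 30 and 10 bases before the start site, 2 in EGR1 at 105 and 83 bases before, and 1 in EGR2 at 71 bases before. They mark a CRE in DUSP1 at 125 bases and in MAFF at 54 bases before the start, and nothing in IER5. Of the 33 genes, 23 had RefSeq windows, 29 windows in all. Searched on both strands, the CArG box was in 3 of them (10.3%, against 1.29% of 35116 windows of the same length), the CRE in 3 (10.3% against 1.85%, the third in JUND), and the AP-1 site in 1 (3.45% against 7.71%), 4 bases after the start of FOSL2. The letters TATAAA on the gene's strand were in 5 windows (17.2% against 7.33%), those of FOS, FOSB, JUNB, ATF3 and DUSP1. The AP-1 and CRE patterns share letters but no match overlapped another. The median G+C content was 69.0% over these windows (46.0% to 80.7%) and 58.7% over all windows. These matches describe the letters only.

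Most of these genes had a promoter peak in every library. A promoter peak is here a peak centred within 1 kb of the start site by the authors' distance. By that rule 26 of the 33 genes had one in the shControl list for DMSO, 25 in that for rapamycin, and 28 and 27 in the shARID1A lists for DMSO and rapamycin. Of all 34326 nearest-gene names in the lists, 37.5%, 37.3%, 37.6% and 36.9% had one, and of the 14711 that match protein-coding genes, 63.3%, 63.4%, 63.8% and 62.9%. The presence by this rule differed between lists for FOS, MAFF, EGR3, DUSP4, DUSP6 and NR4A2. In FOS, MAFF, DUSP4, DUSP6 and NR4A2 the peaks of the 4 lists overlapped, and the start site or the gene named for the peak differed. Counted by place, 29 of the 33 genes had a promoter region, and all 29 had a peak there in all 4 lists, against 84.7% of the 16832 genes with a promoter region in any list. This count by place was chosen after the name switches were seen. For EGR3 it rests on a region merged from neighbouring peaks.

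FOS, the partner of JUN in the classical AP-1 dimer, shows the switch. Its peak spanned 2323, 2266, 2291 and 2211 bp for shControl in DMSO and rapamycin, then for shARID1A in DMSO and rapamycin, and values keep this order below. Its centre was listed at -578, -644, -1506 and -632 bp, where a negative distance is upstream, so that only the shARID1A DMSO peak lost its promoter label although it covered nearly the same bases. The MAFF peak, over the CRE printed above, was named for PLA2G6 in shControl DMSO and listed at -10962 bp from MAFF in shControl rapamycin, but at -425 and 624 bp in the shARID1A lists. DUSP6 was listed at -736, -1939, -851 and 63 bp. EGR3 had its strongest peak at -3003, -2188, -2426 and -1823 bp, outside the 1 kb limit in every list. The ranks of this peak, 57.6, 50.1, 50.9 and 41.4%, are those given for the EGR3 promoter below. In 3 of the 4 lists there was also a weaker peak nearer to the gene, at -1714, -1111 and -924 bp. The nearer peaks ranked at 74.3, 92.7 and 89.7%, and only the one in the shARID1A DMSO list passed the distance limit. In shARID1A rapamycin 1 peak of 1502 bp covered part of both places. The strongest DUSP4 peak carried the name AC084262.2 in shControl rapamycin and shARID1A DMSO, and DUSP4 had another promoter peak in shARID1A DMSO. The first NR4A2 region was listed at -1898, 9728, 62 and -1982 bp and its second at -11401, 225, -9385 and -11351 bp. NR4A1, an orphan nuclear receptor, kept a promoter label in every list, but its main promoter peak was named AC025259.3 in both rapamycin lists. Among regions with 1 peak in each list, the name differed between lists in 13 of 60 at these genes (21.7%) and in 4930 of 30352 in all (16.2%).

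The 4 genes without a promoter region by the authors' names were ATF3, MAFK, IER3 and DUSP2. ATF3, a stress-induced AP-1 partner, had strong peaks at its upstream first exon, listed at -6200 bp from the start site used by the authors, which ranked at 5.91, 5.82, 4.11 and 6.40% of the list. Here a rank is the peak's place by the authors' score within its own list, in percent of the list's length, and low is strong. MAFK, a small MAF protein without a transactivation domain, had its strongest peak in its first intron, listed at 6519 bp, at 8.47, 16.2, 11.0 and 14.0%. IER3, an early response gene linked to cell survival, lay entirely under a peak in all 4 lists (gene at chr6:30743199-30744547), which was named for IER3-AS1 and ranked at 18.2, 24.1, 22.4 and 17.9%. DUSP2, a nuclear phosphatase of MAP kinases best known from leukocytes, had no peak over it in any list. The nearest peaks were 8408, 25408, 1407 and 1661 bp away.

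In the RefSeq windows, 19, 20, 20 and 20 of the 23 genes with a window had a peak over one. Counted by window, 20, 21, 22 and 21 of 29 had a peak (69.0, 72.4, 75.9 and 72.4%), against 45.3, 46.0, 46.5 and 45.2% of all windows. FOSB, a FOS paralog, was the gene that differed: its window had no peak in shControl DMSO, although a promoter peak of 1979 bp was listed nearby. The windows of ATF3, DUSP2 and NR4A1 had no peak in any list.

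JUN, SRF and EGR1 had the strongest promoters of the group. JUN, the central AP-1 subunit, ranked at 5.80, 4.53, 2.17 and 4.36% of the list. SRF, the factor that binds CArG boxes, followed at 3.73, 3.55, 6.04 and 8.40%, and EGR1, a zinc finger factor, at 8.63, 3.70, 7.06 and 9.50%. These are the strongest peaks of each gene's promoter regions, whatever gene the authors named for them. DUSP6, a cytoplasmic phosphatase of ERK, ranked at 8.12, 8.69, 10.4 and 12.2%. IER5, a regulator of heat shock factor HSF1, ranked at 13.3, 12.3, 7.47 and 9.40%, and NR4A1 at 9.77, 10.8, 13.9 and 15.8%. SRF, DUSP6 and NR4A1 ranked weaker in both shARID1A lists than in both shControl lists, while JUN and IER5 ranked stronger. A second NR4A1 promoter region, listed at 688 bp, went the other way, at 37.7, 31.9, 22.2 and 30.0%. Of all promoter regions in all 4 lists, 20.1% ranked weaker and 18.2% stronger in both shARID1A lists. The group as a whole was not placed high: the median rank of the 29 promoters was 17.8, 22.0, 21.7 and 18.2%, and over the 14258 genes with a promoter region in all lists it was 15.9, 16.2, 16.2 and 16.5%. Their peaks were wide, with a median of 1327, 1431, 1305 and 1139 bp for promoter peaks against 979, 1043, 1062 and 1011 bp over all promoter peaks. In bulk chromatin, more cells with an open site and a more open site per cell cannot be told apart.

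**Figure D1:**
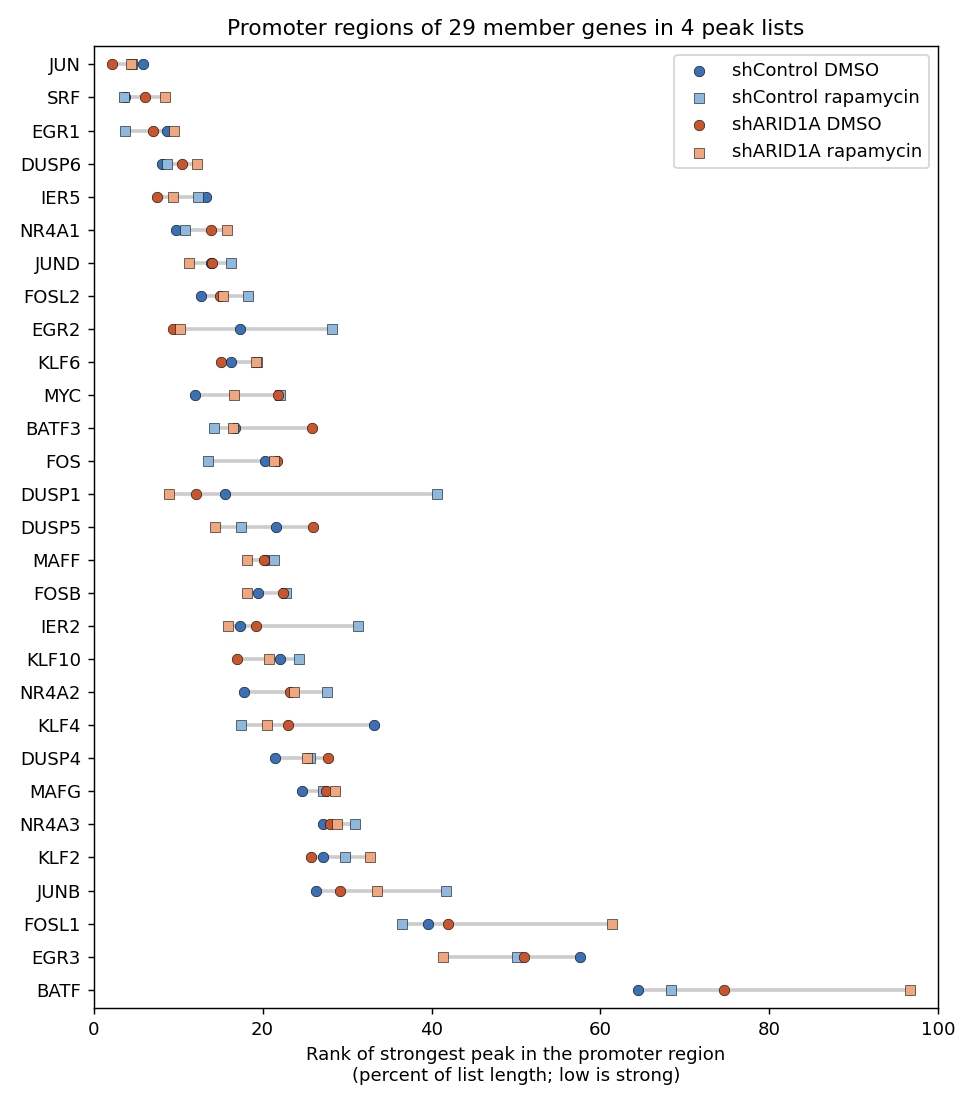
Rank of the strongest peak in the promoter region of each of 29 genes, in percent of list length on the horizontal axis (low is strong), with 1 point per peak list and the range as a grey line; genes are ordered by their mean rank. JUN, SRF and EGR1 lie below 10% in all 4 lists, and BATF, DUSP1 and FOSL1 have the widest ranges.

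Among the other AP-1 subunits, FOSL2 ranked at 12.7, 18.3, 14.9 and 15.3%, JUND, which is expressed constitutively in many cells, at 13.9, 16.2, 14.0 and 11.3%, and FOS at 20.3, 13.5, 21.7 and 21.3%. FOSB stood at 19.5, 22.8, 22.4 and 18.2%. JUNB, a JUN paralog, stood at 26.3, 41.7, 29.2 and 33.5%. FOSL1 (FRA-1), often high in invasive carcinoma lines, stood at 39.6, 36.5, 41.9 and 61.4%. BATF, which lacks a transactivation domain and acts mostly in lymphocytes, had the weakest promoter of the group, at 64.5, 68.4, 74.6 and 96.7%, and its peak there was 1862, 1110, 1437 and 602 bp wide. FOSL1 and BATF were thus weakest in shARID1A rapamycin, by 25.0 and 32.2 points of percent from their strongest list. BATF3, MAFF and MAFG lay between 14.3 and 28.6% in every list. For MAFG these values come from different regions in the shControl and shARID1A lists. Its region listed at 963 bp ranked at 24.7, 27.2, 36.1 and 39.5%, and that at -268 bp at 48.1, 36.2, 27.5 and 28.6%.

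DUSP1, the nuclear phosphatase of p38 and JNK whose CRE is printed above, ranked at 15.6, 40.7, 12.1 and 8.91%. The shControl rapamycin library stood apart from the other 3, although its peak had nearly the same width, 2042, 1934, 2114 and 1993 bp. EGR2, which holds the CArG box shown above, ranked at 17.3, 28.2, 9.35 and 10.2%, also weakest in shControl rapamycin. IER2, a small nuclear protein of early response, ranked at 17.3, 31.3, 19.2 and 15.9% in a region that the authors annotate to the end of AC011446.2. Its other promoter region, over its RefSeq start, ranked differently, at 57.8, 50.4, 35.3 and 51.9%, weakest in shControl DMSO. MYC, the cell growth regulator, stood at 12.0, 22.0, 21.8 and 16.6%. KLF4, a zinc finger factor that restrains proliferation in epithelia, went the other way, at 33.2, 17.4, 23.0 and 20.5%. EGR3, at 57.6, 50.1, 50.9 and 41.4%, was also weakest in shControl DMSO, by a peak listed outside the 1 kb limit. Its nearer peaks had another order, at 74.3% in shControl DMSO, 92.7% in shControl rapamycin and 89.7% in shARID1A DMSO. The remaining factors KLF2, KLF6, KLF10, NR4A2 and NR4A3 lay between 15.1 and 32.7%, and DUSP4 and DUSP5, both nuclear phosphatases of ERK, between 14.4 and 27.7%.

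Of the 29 promoters, 13 ranked weakest in shControl rapamycin (44.8%, against 25.8% of all genes), 4 in shControl DMSO (13.8% against 25.5%), 4 in shARID1A DMSO (13.8% against 20.5%) and 8 in shARID1A rapamycin (27.6% against 28.1%). The 13 were FOSB, FOSL2, JUNB, JUND, MAFF, EGR2, IER2, DUSP1, MYC, KLF6, KLF10, NR4A2 and NR4A3. Ranking only against peaks of promoter regions gave 13 again, against 27.2% of all genes. Many of the 13 lay close together: FOSB, JUND, MAFF, KLF6 and NR4A3 spanned less than 5 points over the 4 lists. Without IER2, whose region over the start site has another order, 12 of 28 ranked weakest there (42.9%). KLF10 also depends on the peak taken: its rank of 17.0% in shARID1A DMSO is that of a peak listed at 1585 bp. Its peaks centred within 1 kb ranked at 22.0, 24.3, 25.3 and 20.8%, weakest in shARID1A DMSO. EGR3, counted as weakest in shControl DMSO, likewise depends on the peak taken. With 1 library in the group, the treatment and the library cannot be told apart.

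A distance of at least 10 points separated only a few promoters in each comparison. With rapamycin in shControl, 5 of 29 ranked weaker by that much, DUSP1, JUNB, IER2, EGR2 and MYC (17.2%, against 8.92% of all genes), and KLF4 alone ranked stronger (3.45% against 9.48%). Without IER2 the weaker ones were 4 of 28 (14.3%). With rapamycin in shARID1A, BATF and FOSL1 ranked weaker (6.90% against 8.08%) and DUSP5 stronger (3.45% against 5.73%). Between shARID1A and shControl in DMSO, BATF ranked weaker (3.45% against 6.96%) and KLF4 stronger (3.45% against 10.1%). In rapamycin, BATF and FOSL1 ranked weaker in shARID1A (6.90% against 8.49%) and DUSP1, EGR2 and IER2 stronger (10.3% against 8.91%). These last 3 comparisons lay near or below the background share. The comparisons share libraries: the single shControl rapamycin list enters both of those in which DUSP1, EGR2 and IER2 appear. DUSP1 moved by 25.05 points with rapamycin in shControl and by -3.15 in shARID1A, EGR2 by 10.94 and 0.90, IER2 by 13.96 and -3.36, and JUNB by 15.49 and 4.26. The difference between these pairs was not tested. Over all 29, the median move with rapamycin in shControl was 2.39 points, with 19 weaker and 10 stronger, and 0.08 over all genes. It was 0.80 with rapamycin in shARID1A (0.20 over all), 1.92 for shARID1A in DMSO (0.01) and -2.11 for shARID1A in rapamycin (0.15).

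By place, 34 of the 35 promoter regions at these genes were in all 4 lists (97.1%, against 81.8% of all promoter regions). The exception was a weak second region in the first exon of DUSP5, ranked at 90.4% in shARID1A DMSO and 91.2% in shARID1A rapamycin and not listed in either shControl library. No promoter peak of the group was lost in any comparison, that is, left without an overlap of at least 1 bp in the other list: 0 of 26 between shControl and shARID1A in DMSO (exact binomial 95% interval 0 to 13.2%; 5.82% of all promoter peaks), 0 of 25 in rapamycin (0 to 13.7%; 6.41%), 0 of 26 with rapamycin in shControl (0 to 13.2%; 5.81%) and 0 of 29 with rapamycin in shARID1A (0 to 11.9%; 6.50%). Gained promoter peaks numbered 1 of 29 in shARID1A with DMSO (6.56% of all promoter peaks), 1 of 29 in shARID1A with rapamycin (5.41%), 0 of 25 with rapamycin in shControl (5.72%) and 0 of 29 with rapamycin in shARID1A (4.51%). Both gains were the DUSP5 region. A FOSB peak at chr19:45467607-45468046, ranked at 69.9%, was also gained in shARID1A DMSO but was listed at -2050 bp and so counted as distal. It covered the RefSeq start of FOSB at 45467996. The intervals cover counting error only. Weighted to the ranks of the members' peaks, the lost shares over all promoter peaks were 0.941, 1.46, 1.07 and 8.49%.

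By the authors' distance these genes had 50, 56, 46 and 44 distal peaks, which were 65.8, 69.1, 61.3 and 60.3% of their peaks, against 75.0, 74.0, 71.4 and 71.4% of all peaks. The counts include peaks in promoter regions that were labelled more than 1 kb away. Examples are FOS at -1506 bp in shARID1A DMSO, DUSP6 at -1939 bp in shControl rapamycin and NR4A2 at -11401 bp in shControl DMSO. Within 1 to 10 kb there were 23, 25, 21 and 20, within 10 to 50 kb 24, 28, 22 and 22, and farther away 3, 3, 3 and 2. That last class held 15.2, 14.8, 12.7 and 13.4% of all peaks, so few distal peaks of these genes lay that far out. The distal peaks counted in this way, promoter-region peaks included, ranked stronger than all distal peaks. Their medians were 41.1, 48.9, 53.3 and 41.5% against 58.5, 59.2, 60.2 and 60.4%. Counted by place, which leaves the promoter regions out, 32 of the 59 distal regions were in all 4 lists (54.2%, against 34.5% of all distal regions).

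Several strong distal regions were in every list. FOSB had one at -11999 bp, in the first intron of ERCC1, at 5.55, 9.54, 12.6 and 13.9%. MAFF had one at 5200 bp, at 5.95, 7.89, 6.40 and 10.0%. NR4A1 had one 10135 bp into its gene, at 6.98, 7.95, 6.35 and 7.27%, with little spread between lists. ATF3 had a second region at -18649 bp with ranks of 7.92, 8.06, 15.9 and 15.7%, KLF4 one at -15157 bp with ranks of 11.5, 8.86, 16.1 and 16.0%, and BATF one in its second intron with ranks of 13.6, 18.2, 29.6 and 26.6%. The regions of FOSB, ATF3, KLF4 and BATF ranked weaker in both shARID1A lists than in both shControl lists.

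That ordering was common in the whole data set. Of the 32 distal regions in all lists, 13 ranked weaker in both shARID1A lists (40.6%, against 41.3% of all such distal regions) and 5 ranked stronger in both (15.6% against 11.8%). The 5 were at FOSL1, JUNB, JUND, NR4A1 and SRF, and the one at -19690 bp from SRF, in an intron of PTK7, differed most, at 81.2, 62.7, 34.5 and 35.1%. Both rapamycin lists ranked weaker than both DMSO lists in 7 (21.9% against 14.6%) and stronger in 2 (6.25% against 10.2%). Of the 34 promoter regions in all lists, 8 ranked weaker (23.5% against 20.1%) and 8 stronger (23.5% against 18.2%) in both shARID1A lists, and 6 weaker (17.6% against 17.7%) and 4 stronger (11.8% against 14.2%) in both rapamycin lists. Of these shares, that of distal regions weaker in both rapamycin lists lay farthest above the share of all regions. It rests on 7 regions, at FOSB, JUNB, MAFF, MAFK, EGR3, NR4A1 and NR4A2. The split has no minimum distance: the NR4A1 region counts at ranks of 6.98, 7.95, 6.35 and 7.27%. No repeat of this split with ranks among distal peaks alone is given.

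**Figure D2:**
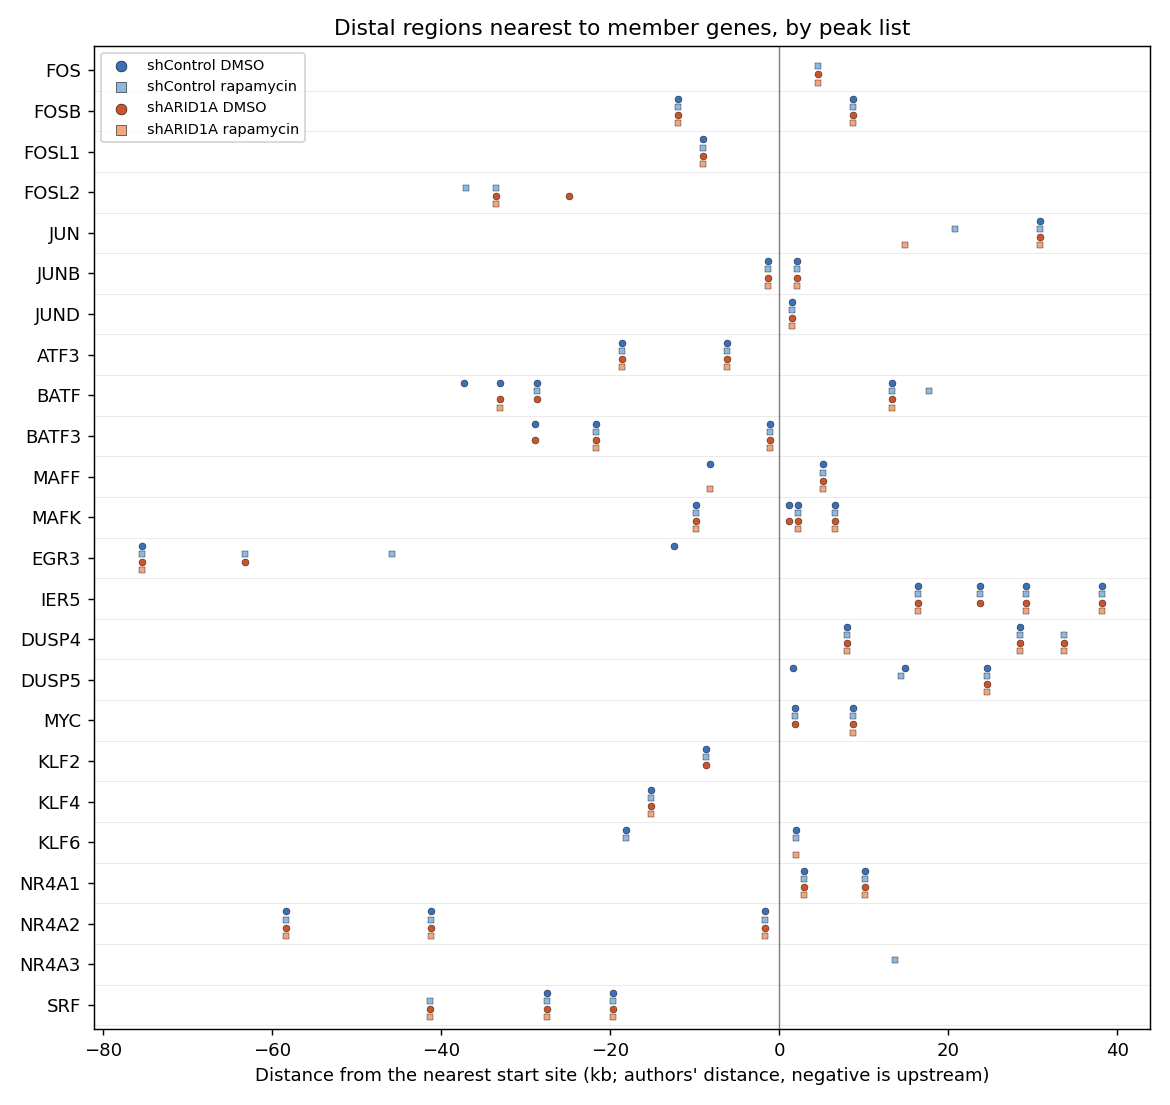
Distal regions nearest to the 24 genes that had any, by the authors' distance from the start site in kb (horizontal axis, negative is upstream), with 1 marker per peak list that holds the region. Of the 59 regions, 32 carry all 4 markers, and the missing shARID1A rapamycin marker at IER5 belongs to the region about 24 kb downstream.

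Distal peaks of the group, again by the authors' distance, were lost and gained at shares below those of all distal peaks. They include the promoter-region peaks with a farther label, and the same rule was applied to all peaks. Between shControl and shARID1A in DMSO, 6 of 50 distal peaks were lost (12.0%, interval 4.53 to 24.3%), against 34.9% of all distal peaks and 23.1% when these are weighted to the members' ranks. In rapamycin 12 of 56 were lost (21.4%, 11.6 to 34.4%; 33.8% of all, 26.1% weighted). With rapamycin 7 of 50 were lost in shControl (14.0%, 5.82 to 26.7%; 27.0%, 16.8% weighted) and 8 of 46 in shARID1A (17.4%, 7.82 to 31.4%; 27.1%, 19.7% weighted). Gained distal peaks numbered 7 of 46 for shARID1A in DMSO (15.2%, 6.34 to 28.9%; 22.1%, 15.7% weighted) and 3 of 44 in rapamycin (6.82%, 1.43 to 18.7%; 23.0%, 15.1% weighted). They numbered 11 of 56 with rapamycin in shControl (19.6%, 10.2 to 32.4%; 23.0%, 17.5% weighted) and 3 of 44 in shARID1A (6.82%, 1.43 to 18.7%; 25.2%, 15.8% weighted). The weighted share lay inside the interval in all 8 comparisons.

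**Figure D3:**
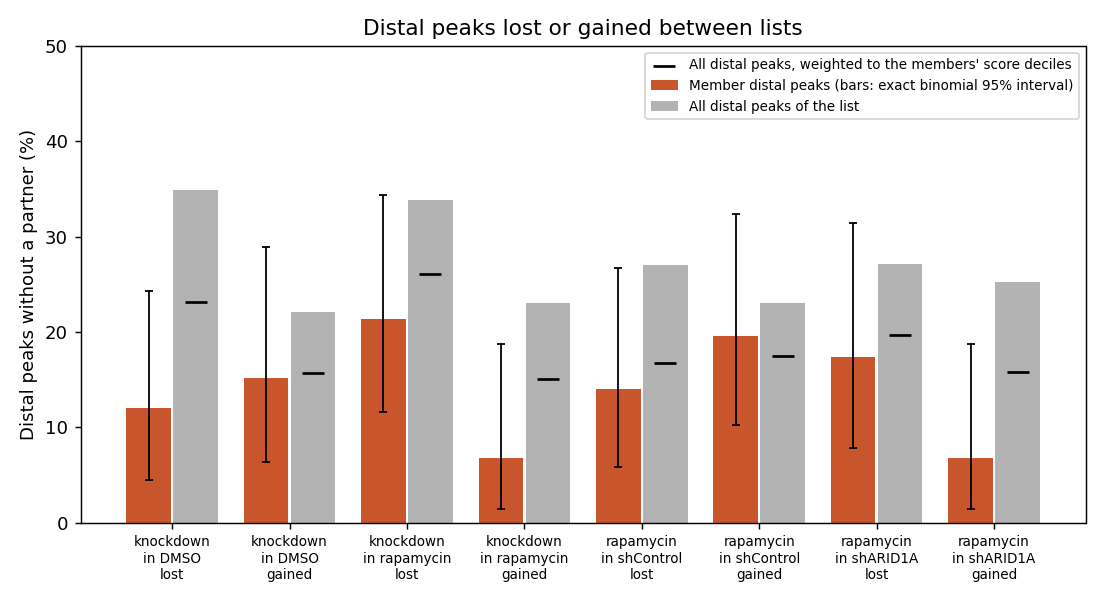
Distal peaks lost or gained in each comparison, as a percent of the distal peaks of the list: orange bars are the peaks of the 33 genes with exact binomial 95% intervals, grey bars are all distal peaks, and black ticks are all distal peaks weighted to the members' score deciles. The weighted share lies inside the interval of every orange bar. Distal is by the authors' distance.

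Regions in some lists only were mostly weak. In just 3 of them did the strongest peak rank in the stronger 50% of its list: the IER5 region described next, and one each at EGR3 and DUSP4. The EGR3 region, at -63254 bp, was listed in shControl rapamycin at 43.0% and shARID1A DMSO at 61.1%, a pair of libraries that share neither hairpin nor treatment. Regions in pairs of this kind were 2 of 59 (3.39%, against 3.98% of all distal regions). The DUSP4 region, 33728 bp downstream, was missing from shControl DMSO and ranked at 49.8, 51.6 and 75.1% in the other 3 lists. FOS had a region 4554 bp downstream with the same pattern, at 52.8, 60.8 and 77.4%. Distal regions missing from shControl DMSO alone were 4 of 59 (6.78%, against 2.13% of all distal regions). KLF6, a zinc finger tumour suppressor, had the only distal region of the group listed in both shControl libraries and in neither shARID1A library, at -18140 bp, which ranked at 55.2 and 60.2%. Such regions were 1.69% of the group's distal regions and 6.44% of all distal regions. BATF and KLF2 each had an upstream region missing from shARID1A rapamycin alone, and MYC a region in its first intron, at 87.5, 81.5 and 68.7% in the other 3 lists. With the IER5 region, those missing from shARID1A rapamycin alone were 4 of 59 (6.78%, against 4.81% of all distal regions).

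IER5 had 6, 6, 5 and 5 peaks. The peak in question lay in intergenic DNA downstream of the gene (chr1:181088700-181092900, GRCh38). In shControl DMSO it was at chr1:181112205-181112881, 676 bp wide and centred 23831 bp from the start site, with rank 5618 (10.8%). In shControl rapamycin it was at chr1:181111951-181112891, 940 bp wide, with rank 5986 (12.0%), and in shARID1A DMSO at chr1:181112178-181112965, 787 bp wide, with rank 9225 (20.2%). Among distal peaks alone these ranks were 3.62, 3.87 and 7.51%. In shARID1A rapamycin no peak was listed between the neighbours at 16 and 29 kb, which left gaps of 6300 and 4715 bp on either side of the place. Some lists skip peak numbers, but none was skipped at this place in any list, and the shARID1A rapamycin list skips none at all.

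The neighbouring peaks of IER5 were in all 4 lists. The promoter peak of shARID1A DMSO, 2146 bp wide, joined the promoter and a second peak that the other lists held separately. The region 16386 bp downstream ranked at 22.9, 16.3, 14.0 and 21.7%, and its ranks in shControl and shARID1A cells overlapped. The region at 29134 bp ranked at 35.4, 40.7, 79.8 and 51.6%, and that at 38230 bp at 38.5, 58.2, 84.3 and 58.8%, both weakest in shARID1A DMSO. Both outer regions thus ranked weaker in both shARID1A lists than in both shControl lists, as did 41.3% of all distal regions in all 4 lists. The shARID1A DMSO library, in which they ranked weakest, held the 24 kb peak. The shARID1A rapamycin library, which lacked it, ranked them stronger than shARID1A DMSO but weaker than either shControl library. Of 1539 distal regions that ranked at 20.2% or stronger in each of the other 3 lists, the 24 kb region was the only 1 missing from shARID1A rapamycin (0.0650%). Of 21172 distal regions in those 3 lists, 2592 were missing from it (12.2%). The peak was put forward because it was missing, and the limit of 20.2% is its own weakest rank, so these shares are a description. No read counts stand behind the lists used here, so how much signal remained below the calling threshold is not known.

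**Figure D4:**
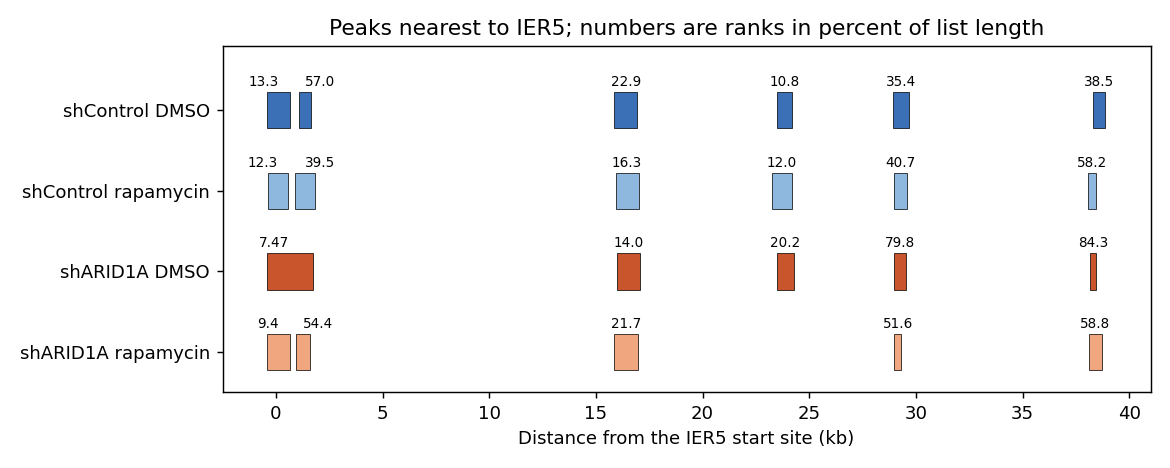
Peaks nearest to IER5 in each of the 4 lists, drawn to scale by distance from the start site in kb, with the rank in percent of list length above each. The peak near 24 kb is present at 10.8, 12.0 and 20.2% and missing from shARID1A rapamycin, while the peaks on both sides are in all 4 lists.

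Promoters of other genes of the pathway were also open in most cases. Of 54 related genes, 47, 47, 49 and 49 had a peak in a promoter region. By the authors' distance, 38, 39, 41 and 37 had a promoter peak. Of all nearest-gene names that match protein-coding genes, 63.3, 63.4, 63.8 and 62.9% had one by the same distance rule. No such share is given for the counts by region, so these have no matched background here. Counted by region, the kinases of the MAP kinase cascades, such as MAPK8, MAPK14 and MAP2K1, had a peak in every list. So did 19 of 23 further immediate early and feedback genes. By the authors' distance the kinases with a promoter peak numbered 9, 11, 11 and 8 of 12. By region again, the AP-1 and basic leucine zipper partners had 11, 10, 12 and 12 of 13, and the SRF cofactors 5, 6, 6 and 6 of 6. By distance these were 8, 8, 10 and 11 of 13, and 5, 4, 5 and 3 of 6. By the authors' distance, the promoter label also switched at strong promoters with a peak in all 4 lists. CREB1, for example, ranked at 0.544, 0.311, 1.04 and 0.436% but had the label in shControl rapamycin and shARID1A DMSO only. By region, the promoters that differed were weak: JDP2, a repressor that dimerises with JUN, was listed in the shARID1A libraries alone at 87.6 and 92.7%. BATF2 was missing from shControl rapamycin and ranked at 52.9, 75.4 and 75.5% elsewhere, and ELK3, an ETS partner of SRF, was missing from shControl DMSO and ranked at 86.5, 74.8 and 64.8%. EGR4, KLF9, DUSP8 and ARC had no promoter region by the authors' names in any list. No peak carried the name NFE2L2, but all 4 lists had peaks within that gene named for DNAJC19P5. Of the 46 with a region in all lists, 0 ranked weaker by at least 10 points and 2 stronger with rapamycin in shControl (8.92% and 9.48% of all genes), and 2 and 0 with rapamycin in shARID1A (8.08% and 5.73%). For shARID1A against shControl the numbers were 0 and 3 in DMSO (6.96% and 10.1%) and 3 and 4 in rapamycin (8.49% and 8.91%). The list with the weakest rank was shControl DMSO for 10 of the 46, shControl rapamycin for 7, shARID1A DMSO for 12 and shARID1A rapamycin for 17. Over all genes the shares, in the same order, were 25.5, 25.8, 20.5 and 28.1%.

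The cell line label was checked against marker promoters. The liver factors HNF4A, FOXA1, FOXA2 and FOXA3 and the genes APOA1, APOB and TF had promoter regions in all 4 lists and TTR in shARID1A rapamycin only, while ALB, AFP, SERPINA1 and FGB had none. Of markers of other cell types, promoter regions were found in all 4 lists for CD14 and LYZ of leukocytes and for COL1A1 and COL1A2 of 5 stellate cell and fibroblast markers. PTPRC and CD3E had none, nor had any of the 4 endothelial markers.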

How the data were processed

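ATAC-seq peak lists of 4 Huh7 libraries were analysed. The submitters' processing notes name BWA, MACS2 2.0 and the build GRCh38 (hg38); caller settings, duplicate handling, the transposase offset and the read depth are not stated there. Each list gives, per the file headers, a position, a score, an annotation, a distance to a start site and a nearest gene. The authors' deposited score, of unstated scale (lowest 1.30 or 1.31), was used only to rank peaks within a list. Peak numbers are skipped in 2 lists, 1093 in shControl rapamycin and 6666 in shARID1A DMSO; none was skipped where a member peak was lost or gained.

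Overlaps (at least 1 bp), merged regions, ranks and exact (Clopper-Pearson) 95% intervals were computed in Python 3.11.15 (SciPy 1.17.1, NumPy 2.4.6, pandas 2.3.3), and matplotlib 3.10.9 drew the figures. The overlap code was tested on simulated data. Promoter sequences are RefSeq's. No p-value was computed with 1 library per group. Some marker and pathway genes are not reported here. The members and lists were chosen with earlier results of these data known. Named in full were members whose promoter presence differed, the 6 with the lowest mean and the 6 with the most variable promoter rank, those with a distal region in some lists only that reached the stronger 50%, and IER5. Counts by region, by RefSeq window, within promoter or distal peaks alone, and of regions separated by hairpin or treatment, and counts without IER2, were chosen after seeing the data.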

Additional observations from a re-analysis of the deposited data

Results flagged for a closer look

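The promoter of MYC ranked weaker by 10.01 points of percent with rapamycin in shControl cells and stronger in shARID1A cells (-5.21 points), so that its rank moved in opposite directions in the cells with each hairpin, by at least 5 points in each. Each value rests on a pair of libraries, and the difference was not tested. Opposite moves of that size were seen in 1187 of 14258 genes (8.33%) and in 1 of the 29 member promoters (3.45%).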

How the results depend on the processing

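Of 122 alternative values for 35 results, 101 stayed close to the reported value and 21 moved. A promoter limit of 500 bp left 16 genes with a promoter peak in shControl rapamycin and 16 in shARID1A rapamycin. In the stronger 50% of each list there were 28, 30, 20 and 25 distal member peaks. There, for shARID1A against shControl, 0% of all member peaks were lost and 0% gained in DMSO, and 3.70% lost and 0% gained in rapamycin. With rapamycin, 0% were lost and 3.70% gained in shControl, and 2.27% lost and 0% gained in shARID1A. No share over all genes or all peaks is given at the 500 bp limit or in the stronger 50%. The median promoter rank among promoter peaks alone was 46.6, 56.4, 56.3 and 47.9%, and the IER5 peak ranked at 3.62, 3.87 and 7.51% among distal peaks, since each is set against another population. Against distal peaks alone, 10 of 32 distal member regions ranked weaker (31.2%, against 35.1% of all) and 7 stronger (21.9% against 15.4%) in both shARID1A lists. No paired analysis was possible because each group has 1 library, so the groups share no more than 1 replicate number. Depth is not known, so a missing peak may lie just under the caller's threshold.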
